A study of Homo sapiens with 6 samples.

Results

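The aminoacyl-tRNA synthetase genes described here are the 36 genes, of 37887 rows in the count table, whose symbols name the enzymes that charge tRNAs in the cytosol (20 genes) or in mitochondria (16 genes, with symbols ending in 2). All 36 symbols were found in the table. RNA-seq was performed on BT-549 cells, an established triple-negative breast cancer (TNBC) cell line, in 2 groups of 3 libraries. The sample titles name the groups as a control shRNA (shCTL) and a PBRM1 shRNA (shPBRM1), and the treatment labels give DMSO for the first group and doxycycline (DOX) for the second. The series design instead describes one line carrying a tet-PBRM1 shRNA vector, exposed to 0.1% DMSO as vehicle or to 500 ng/ml DOX to switch the shRNA on. An effect of DOX itself and an effect of PBRM1 silencing cannot be told apart in these libraries. PBRM1 encodes the bromodomain subunit that directs the PBAF form of the SWI/SNF chromatin remodeling complex to chromatin.

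Aminoacyl-tRNA synthetases attach each amino acid to its tRNA, and the charged tRNAs are what the ribosome reads. Cells keep a cytosolic set and a mitochondrial set, both encoded in the nucleus; EPRS is a single protein that charges both glutamate and proline tRNAs, and GARS and KARS each supply both compartments. Many cytosolic synthetase genes are known targets of ATF4, the transcription factor of the integrated stress response, whereas WARS, the tryptophanyl-tRNA synthetase, is also a classical interferon (IFN)-inducible gene. WARS charges tryptophan, the amino acid that IDO1 degrades.

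The promoters are shown first, because the text below asks how WARS differs from the other synthetases. Sequences are from RefSeq on GRCh38.p14 and span 250 bases before to 50 bases after an annotated start; 30 of the 36 genes had an entry, and DARS, LARS, VARS, YARS, AARS2 and VARS2 did not. Each was searched on both strands for the IFN-stimulated response element (ISRE, GAAA and GAAA with any 2 bases between them), the IFN-gamma-activated site (GAS, TTCNNNGAA) and the ATF4 element (CARE, TGATGNAA), and no match in a synthetase promoter overlapped a match of another kind. RefSeq gives WARS 2 starts. The window of the first, chr14:100376278-100376577 on the minus strand, had no match. The window of the second, chr14:100375298-100375597 on the minus strand, had a GAS at position -142 and an ISRE at position -55 relative to the start, both in capitals:

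WARS, start 2: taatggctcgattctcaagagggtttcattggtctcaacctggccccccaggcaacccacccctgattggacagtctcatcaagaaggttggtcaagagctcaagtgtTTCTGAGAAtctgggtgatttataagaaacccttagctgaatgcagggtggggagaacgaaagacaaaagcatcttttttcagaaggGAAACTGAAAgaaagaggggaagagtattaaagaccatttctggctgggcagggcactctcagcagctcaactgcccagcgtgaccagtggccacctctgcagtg

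Among the 16 cytosolic genes with a promoter, WARS was the 1 gene with an ISRE match, and among the 14 mitochondrial genes there was also 1, EARS2. A GAS match was found in 3 cytosolic genes (CARS, TARS and WARS) and 2 mitochondrial genes (PARS2 and WARS2), so that it was not particular to WARS. Over all 27305 genes in the promoter table, 4.38% had an ISRE match, 9.38% a GAS match and 4.46% a CARE match. The GAS match of WARS2, the mitochondrial enzyme for the same amino acid, is shown for comparison with WARS, and the EARS2 site because it is the other ISRE match. Capitals mark the match, and all 3 genes are on the minus strand.

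WARS, ISRE (chr14:100375377-100375418): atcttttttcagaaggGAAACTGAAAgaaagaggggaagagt
EARS2, ISRE (chr16:23557548-23557589): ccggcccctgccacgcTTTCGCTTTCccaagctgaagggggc
WARS2, GAS (chr1:119140839-119140879): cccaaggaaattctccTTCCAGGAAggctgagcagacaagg

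The CARE was the motif most often found in the cytosolic set, in 7 of 16 genes (43.8%) against 1 of 14 mitochondrial genes (7.14%), YARS2. All 7 carriers are on the list of known ATF4 targets. Their sites are shown because these genes did not move together below. In 6 of the 7 the site reads as the same 8 letters on one strand or the other, and GARS differs from these.

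AARS (chr16:70289670-70289709, minus strand): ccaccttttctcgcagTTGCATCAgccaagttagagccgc
CARS (chr11:3057402-3057441, minus strand): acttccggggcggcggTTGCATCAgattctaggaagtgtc
GARS (chr7:30594829-30594868, plus strand): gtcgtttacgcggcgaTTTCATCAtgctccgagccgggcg
IARS (chr9:92293687-92293726, minus strand): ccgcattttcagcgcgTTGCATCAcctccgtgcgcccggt
MARS (chr12:57488048-57488087, plus strand): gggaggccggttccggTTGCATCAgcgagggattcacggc
NARS (chr18:57621799-57621838, minus strand): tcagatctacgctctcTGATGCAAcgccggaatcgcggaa
TARS (chr5:33440951-33440990, plus strand): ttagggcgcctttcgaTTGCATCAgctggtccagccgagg

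These matches are descriptions of the letters in the windows; binding at them was not measured in these libraries.

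**Figure D1:**
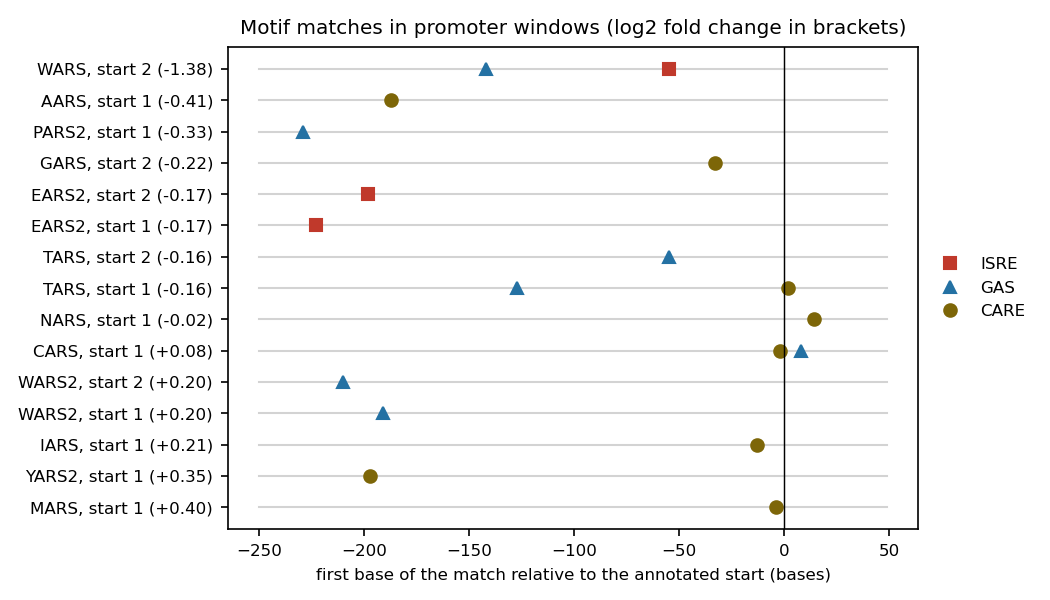
Position of ISRE (squares), GAS (triangles) and CARE (circles) matches in the promoter windows of the synthetase genes that have at least 1 match; the x axis is the first base of the match relative to the annotated start, and the bracketed value is the log2 fold change of the gene, shPBRM1 over shCTL. WARS carries an ISRE at position -55 and a GAS at position -142, and the CARE carriers range from -0.41 for AARS to 0.40 for MARS.

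The controls were sequenced to 36429395, 47996676 and 49784336 assigned counts, in the order of replicates 1 to 3, and the silenced libraries to 60221790, 40035400 and 65096297. The 36 synthetase genes took between 0.629% and 0.710% of these counts. Of the 36 genes, 35 had at least 50 counts in every library and passed the filter on low counts. VARS2, the mitochondrial valyl enzyme, was listed at 0 counts in 5 libraries and at 1 in shPBRM1 replicate 2, and was not tested. GTF2H4, a subunit of the general transcription factor TFIIH that overlaps VARS2 on the same strand, had between 0 and 4 counts. Since a gene of general use is also near 0 there, the VARS2 value is not read as a lack of transcript. Levels below are CPM, counts scaled to the TMM-normalized library size, with n = 3 per group and replicates given in the order 1 to 3. Adjusted p-values come from the quasi-likelihood test of edgeR with Benjamini-Hochberg adjustment over the 15450 genes tested, and "rose", "fell", "higher" and "lower" in counts of genes refer to an adjusted p under 0.05.

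The silenced gene was checked first. PBRM1, on chromosome 3 from 52545352 to 52685917 in GENCODE v29 (GRCh38), measured 157, 157 and 161 CPM in control cells against 43.3, 40.9 and 41.7 CPM after silencing. The groups did not overlap, and all 6 libraries matched their labels as control or silenced. PBRM1 levels cannot show which kind of control was used or whether the replicate numbers are right. BT-549 identity was read from VIM, a mesenchymal marker, with between 22474 and 48158 counts per library, and from ESR1 and PGR, the hormone receptors absent from TNBC, with no more than 2 and 12 counts. EPCAM had at most 8 counts. The epithelial gene CDH1 was low, with 4.98, 4.65 and 5.37 CPM in controls and 1.83, 1.49 and 1.21 CPM after silencing. The endothelial marker PECAM1 had at most 18 counts. The leukocyte marker PTPRC had between 4 and 44 counts and was lower in shPBRM1 (0.132 ± 0.0587 CPM) than in shCTL libraries (0.797 ± 0.0907 CPM, SD, n = 3). The part of CDH1- or PTPRC-expressing cells in the results was not tested.

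WARS was the synthetase gene with the largest change, and the only one of the 35 tested past a fold change of 2. The gene lies on chromosome 14 from 100333788 to 100376805 on the minus strand. The controls held 28610, 38118 and 39916 reads of WARS as deposited, against 18226, 11595 and 18833 after silencing. After normalization these were 767, 784 and 791 CPM against 304, 298 and 295 CPM, so that every silenced library was far below every control. In shPBRM1 cells WARS was at 38.3% of the control level (log2 fold change -1.38, standard error 0.018, adjusted p = 5.31e-19, edgeR). In bulk RNA, fewer cells with the transcript and less transcript per cell cannot be told apart. The annotation overlaps WARS with WDR25 on the opposite strand. Its processed pseudogene WARSP1 had 0 counts in all 6 libraries.

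Among the 20 cytosolic genes, 5 were lower (WARS, AARS, GARS, TARS and YARS), 8 were higher and 7 did not pass the test at an adjusted p under 0.05. Of all genes tested, 33.2% were lower and 31.5% were higher by the same rule, so neither count stands far from the background. With a fold change over 2 as a further condition, 1 cytosolic gene was lower and 0 were higher, where 9.68% and 2.87% of all genes were. For the 19 cytosolic genes other than WARS, log2 fold changes ranged from -0.41 to 0.48 around a median of 0.069, beside a median of -0.0080 for all tested genes. With library size alone as the scaling, these medians were 0.020 and -0.056. The difference in log2 fold change between WARS and the nearest of them, AARS, was -0.97, and that between WARS and their median was -1.45. Counted by libraries instead of the test, 10 of the 35 synthetase genes had all silenced libraries below all controls and 19 had all above, where 35% and 33.3% of all tested genes did.

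**Figure D2:**
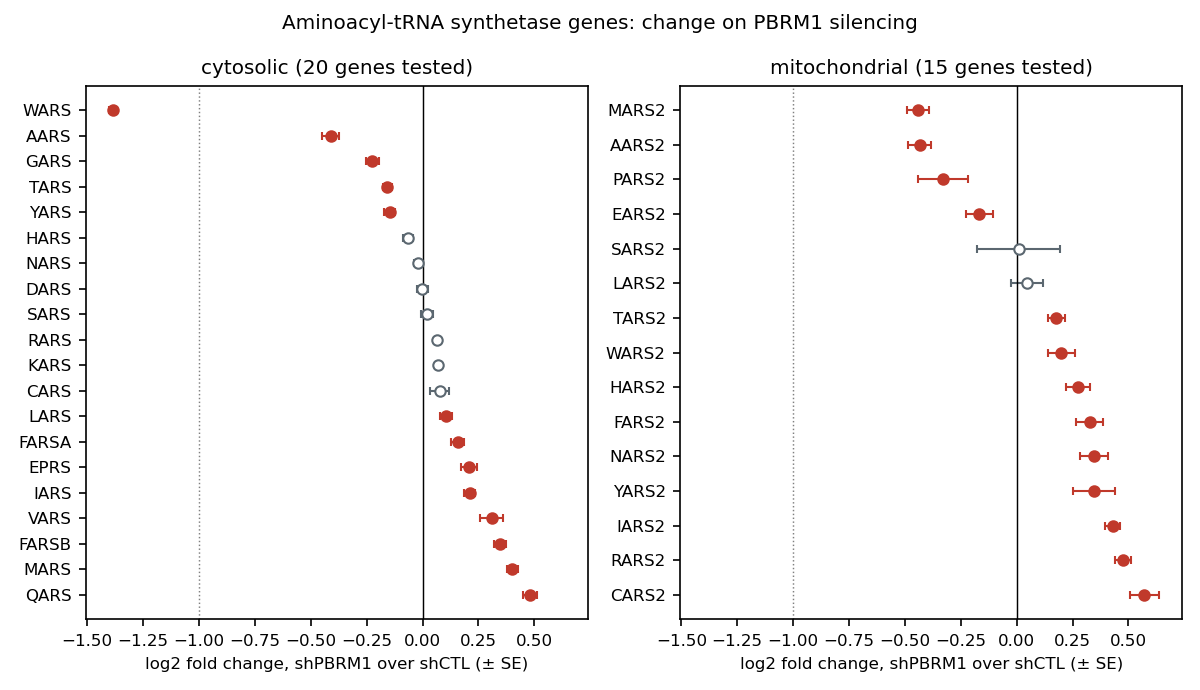
Log2 fold change of the 35 tested synthetase genes, shPBRM1 over shCTL, with the standard error from the spread between replicates; filled red points passed an adjusted p under 0.05, open points did not, and the dotted line marks a 2-fold decrease. WARS stands alone at -1.38, with all other genes between -0.44 and 0.57.

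Of the cytosolic genes that fell beside WARS, AARS had the largest change. AARS, the alanyl enzyme, was at 553, 570 and 553 CPM in shCTL and at 439, 415 and 406 CPM in shPBRM1 libraries. The groups were apart (log2 fold change -0.41, standard error 0.036, adjusted p = 6.26e-09, edgeR). GARS, the glycyl enzyme that serves both compartments, was at 865, 908 and 917 CPM in shCTL and at 776, 760 and 767 CPM in shPBRM1 (log2 fold change -0.22, standard error 0.027, adjusted p = 1.27e-05). Again, no silenced library reached a control. Smaller decreases were found for TARS, the threonyl enzyme (log2 fold change -0.16), and YARS, the tyrosyl enzyme (-0.15). HARS, the histidyl enzyme, was below its controls in all 3 silenced libraries but did not pass the test (log2 fold change -0.064, adjusted p = 0.117).

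The increases in the cytosolic set were led by QARS and MARS. QARS, the glutaminyl enzyme, was at 105, 109 and 108 CPM in shCTL and at 155, 146 and 148 CPM in shPBRM1 libraries. All silenced libraries exceeded all controls (log2 fold change 0.48, standard error 0.031, adjusted p = 3.65e-11, edgeR). MARS, the methionyl enzyme that also charges the initiator tRNA, was at 249, 257 and 250 CPM in shCTL and at 342, 328 and 330 CPM in shPBRM1 (log2 fold change 0.40, standard error 0.025, adjusted p = 3.07e-09). The groups were again apart. The annotation overlaps MARS with DDIT3 and ARHGAP9 on the opposite strand. FARSB, the beta subunit of the phenylalanyl enzyme, was at 61.5, 59.6 and 58.9 CPM in shCTL and at 74.8, 75.4 and 78.2 CPM in shPBRM1 (log2 fold change 0.35, adjusted p = 2.11e-08). Its partner FARSA, the catalytic alpha subunit, also rose, by a log2 fold change of 0.16. VARS, IARS, EPRS and LARS rose by 0.31, 0.21, 0.21 and 0.10 on the log2 scale, respectively. The LARS increase was lost with library size alone as the scaling (0.056, adjusted p = 0.230) and without shCTL replicate 1 (0.090, adjusted p = 0.0982) or 2 (0.10, adjusted p = 0.0742).

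The cytosolic enzymes differ in their partners. DARS, EPRS, IARS, KARS, LARS, MARS, QARS and RARS encode the enzymes of the multisynthetase complex, a particle in which several synthetases are held together by the AIMP scaffold proteins. Of these 8, 5 rose, 0 fell and 3 did not pass the test, with a median log2 fold change of 0.16. Of the 12 genes outside the complex, 3 rose, 5 fell and 4 did not pass, with a median of -0.041, or -0.018 without WARS. Among all tested genes 31.5% were higher and 33.2% lower. Counted by libraries, 7 of the 8 complex genes had all silenced libraries above all controls and 0 had all below. Of the 11 genes outside the complex other than WARS, 3 had all above and 5 all below. Among all tested genes these shares were 33.3% and 35%. There are few genes on each side, and a difference between the sets was not tested. By structural class of the catalytic site, the 10 class I genes (counting EPRS, which has sites of both classes) had 2 lower and 6 higher, with a median of 0.16, and the 10 class II genes had 3 lower and 2 higher, with a median of -0.0094, beside the same shares over all genes. WARS and YARS, which are close relatives within class I, were the 2 class I genes that fell.

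A list of known ATF4 targets, which like the other lists was drawn up with results of these data known, gave another division. All 5 cytosolic genes that fell are among the 11 known ATF4 targets, of which 3 rose and 3 did not pass the test, where 33.2% of all tested genes were lower and 31.5% higher. Of the 9 cytosolic genes off that list, 0 fell, 5 rose and 4 did not pass. Median log2 fold changes were 0.00090 for the 10 ATF4 targets other than WARS and 0.10 for the 9 genes off the list. The 7 cytosolic genes with a CARE match in the promoters shown above were split, with 3 lower (AARS, GARS and TARS), 2 higher (IARS and MARS) and 2 that did not pass (CARS and NARS). NARS, the asparaginyl enzyme, and CARS, the cysteinyl enzyme, had log2 fold changes of -0.018 and 0.076. With a library left out, NARS was between -0.032 and -0.00084 and CARS between 0.041 and 0.11. With library size alone as the scaling, CARS was at 0.028 and NARS at -0.067. Of the genes with an ISRE match, WARS was at -1.38 and EARS2 at -0.17, and the EARS2 call was lost when shCTL replicate 3 or shPBRM1 replicate 2 was left out.

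The genes of the integrated stress response itself moved in both directions. Of 15 such genes, 6 were lower, 4 were higher and 5 did not pass the test, with a median log2 fold change of -0.061, close to the 33.2% lower and 31.5% higher among all tested genes. ATF4 was at 414, 440 and 418 CPM in shCTL and at 371, 405 and 388 CPM in shPBRM1 libraries (log2 fold change -0.13, adjusted p = 0.0121, edgeR). DDIT3, a pro-apoptotic factor downstream of ATF4, fell by 1.49 on the log2 scale, and ATF3, a stress-induced transcription factor, by 1.29. TRIB3, SESN2 and CEBPB were also lower, at -0.64, -0.74 and -0.63. The amino acid transporter genes SLC7A5 and SLC7A11 were higher, by 0.69 and 0.55, as was VLDLR by 1.03. ASNS, asparagine synthetase and a standard ATF4 readout, did not pass the test (-0.12, adjusted p = 0.314). Its level was low, with a mean of 5.25 CPM in shCTL and 4.83 CPM in shPBRM1, and all silenced libraries were below all controls. The annotation also overlaps ASNS with AC079781.5 on the same strand. DDIT3 overlaps MARS on the opposite strand, and these genes moved in opposite directions.

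In the mitochondrial set, 9 of the 15 tested genes were higher, 4 were lower (MARS2, AARS2, PARS2 and EARS2) and 2 did not pass the test, against 31.5% higher and 33.2% lower among all tested genes. Of the 15, 0 passed a fold change of 2 in either direction, where 9.68% of all tested genes were lower and 2.87% higher by that rule. The median log2 fold change was 0.20, with a range from -0.44 to 0.57. Standard errors reached 0.18 for SARS2, the seryl enzyme and the least abundant synthetase gene tested. The annotation overlaps SARS2 with AC011455.2 on the same strand and with MRPS12 on the opposite strand, so its level is uncertain.

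The largest mitochondrial increases were those of CARS2, RARS2 and IARS2. CARS2, the cysteinyl enzyme, was at 26.1, 27.5 and 23.9 CPM in shCTL and at 37.7, 37.5 and 39.8 CPM in shPBRM1 libraries. The groups did not overlap (log2 fold change 0.57, standard error 0.066, adjusted p = 9.90e-09, edgeR). RARS2, the arginyl enzyme, was at 43.2, 43.5 and 45.4 CPM in shCTL and at 59.5, 60.5 and 63.6 CPM in shPBRM1 (log2 fold change 0.47, adjusted p = 1.29e-09). IARS2, the isoleucyl enzyme, was at 124, 126 and 129 CPM in shCTL and at 175, 164 and 172 CPM in shPBRM1 (log2 fold change 0.43, adjusted p = 3.75e-10). In both genes, each silenced library exceeded each control. YARS2, NARS2, FARS2, HARS2 and TARS2 were also higher, by between 0.18 for TARS2 and 0.35 for YARS2. HARS2 overlaps HARS head to head on the opposite strand, so their values are uncertain where counting did not use the strand.

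The largest mitochondrial decreases were those of MARS2, AARS2 and PARS2. MARS2, the methionyl enzyme, was at 7.29, 7.53 and 7.53 CPM in shCTL and at 5.75, 5.14 and 5.52 CPM in shPBRM1 libraries. The groups did not overlap (log2 fold change -0.44, standard error 0.049, adjusted p = 3.11e-04, edgeR). The annotation overlaps MARS2 with AC011997.1 on the same strand, so its level is uncertain. AARS2, the alanyl enzyme, was at 21.9, 20.9 and 19.5 CPM in shCTL and at 15.6, 15.4 and 15.0 CPM in shPBRM1 (log2 fold change -0.43, adjusted p = 4.95e-06). PARS2, the prolyl enzyme, was at 9.70, 11.3 and 12.6 CPM in shCTL and at 9.20, 8.69 and 8.94 CPM in shPBRM1 (log2 fold change -0.33, standard error 0.11, adjusted p = 0.00284). Its control libraries differed more among themselves than those of the other 2 genes, and shCTL replicate 1 lay just above the silenced libraries. EARS2, the glutamyl enzyme, was lower by a log2 fold change of -0.17 (adjusted p = 0.0157), a call that was lost without shCTL replicate 3 (-0.14, adjusted p = 0.0766) or shPBRM1 replicate 2 (-0.13, adjusted p = 0.0791).

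**Figure D3:**
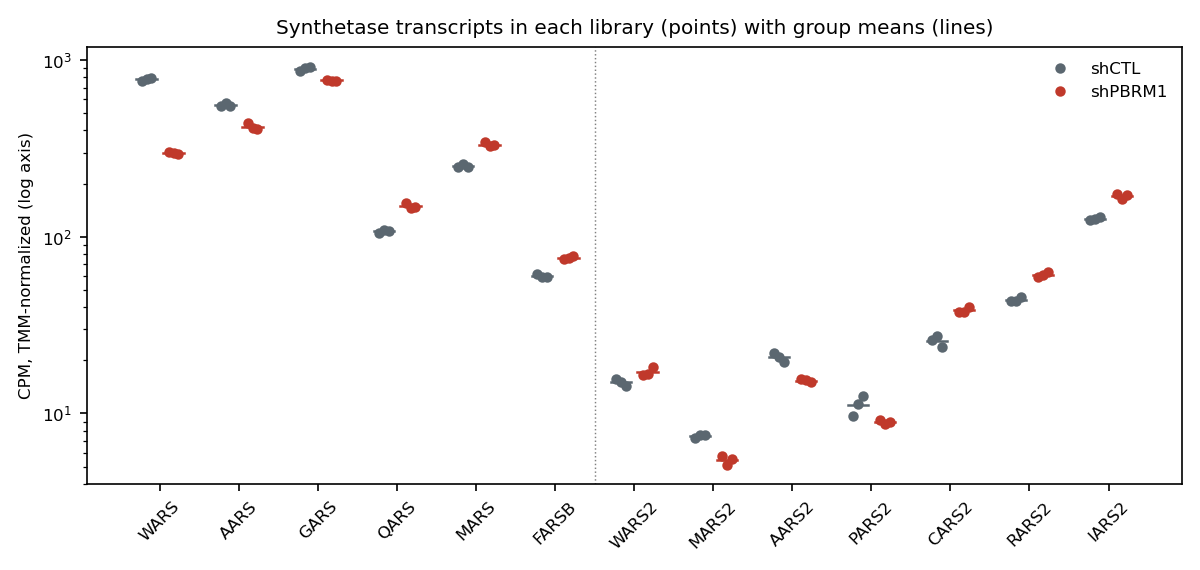
TMM-normalized CPM on a log axis in each of the 3 shCTL and 3 shPBRM1 libraries (points) with the group means (lines), for cytosolic (left of the dotted line) and mitochondrial genes. WARS drops from between 767 and 791 to between 295 and 304 CPM. Its mitochondrial counterpart WARS2 is slightly higher after silencing, from between 14.3 and 15.7 to between 16.5 and 18.3 CPM.

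The enzymes for tryptophan were then set against each other. WARS2, on chromosome 1 from 119031216 to 119140671, was at 15.7, 15.1 and 14.3 CPM in shCTL and at 16.5, 16.8 and 18.3 CPM in shPBRM1 libraries. The silenced libraries were all above the controls, by little (log2 fold change 0.20, standard error 0.061, adjusted p = 0.0169, edgeR). This call was lost with library size alone as the scaling (0.15, adjusted p = 0.0711), without shCTL replicate 3 (0.16, adjusted p = 0.0930) and without shPBRM1 replicate 3 (0.15, adjusted p = 0.0975). How libraries are scaled hardly moves the log2 ratio of WARS to WARS2. This ratio was 5.61, 5.69 and 5.79 in shCTL and 4.20, 4.14 and 4.01 in shPBRM1. The ratio was thus lower in every silenced library, with a difference of group means of -1.58 (standard error 0.077). By exact permutation of the libraries (two-sided), p = 0.1, which is the lowest value available with 3 libraries in each group, or 0.125 adjusted over the 15 cytosolic to mitochondrial ratios computed. None of the 15 ratios could pass 0.05 by this permutation test.

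The other 14 ratios covered the remaining amino acids with an enzyme gene for each compartment among the 36, except valine, as VARS2 was not tested, with EPRS set against both EARS2 and PARS2. The ratios of YARS to YARS2 and of CARS to CARS2 were lower by -0.50 and -0.49, and those of RARS, NARS, TARS, HARS, IARS and FARSA to their counterparts by between -0.41 and -0.17. MARS to MARS2 moved the other way and by the most, 0.85 higher in shPBRM1, and here the cytosolic gene rose while the mitochondrial gene fell. EPRS to PARS2 and EPRS to EARS2 were higher by 0.52 and 0.37. For alanine, AARS and AARS2 fell alike, and their log2 ratio was 4.75 ± 0.086 in shCTL and 4.77 ± 0.033 in shPBRM1 (SD, n = 3), a difference of 0.022 with a standard error of 0.053.

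**Figure D4:**
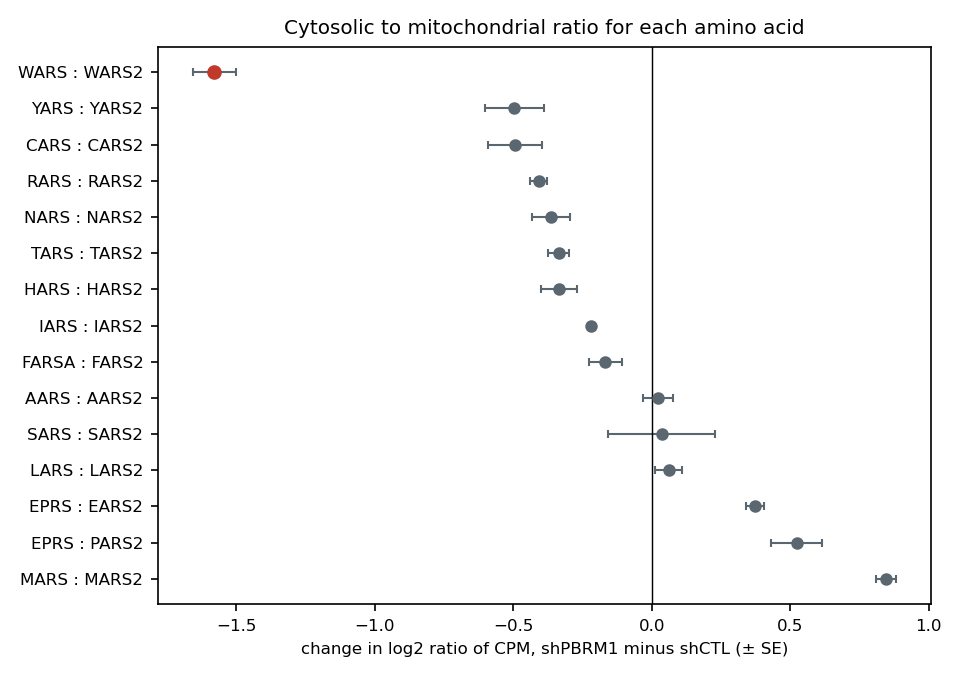
Change in the log2 ratio of CPM between the cytosolic and the mitochondrial gene for the same amino acid, shPBRM1 minus shCTL, with the standard error from the spread between 3 libraries per group; WARS to WARS2 is in red. The 15 ratios range from -1.58 for WARS to WARS2 to 0.85 for MARS to MARS2.

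To compare levels between genes, CPM was divided by the merged exon length of each gene in kilobases. On this scale, the cytosolic genes had a median of 47.5 CPM per kilobase in shCTL and the mitochondrial genes of 4.89. In shCTL cells GARS was highest at 216 ± 6.60 CPM per kilobase (SD, n = 3). AARS followed at 124 ± 2.16 and WARS at 123 ± 2.01, which did not differ beyond their spread, and SARS, the seryl enzyme, at 111 ± 2.62. This order depends on the length used, since by the longest transcript WARS was at 252 and AARS at 161 CPM per kilobase. In shPBRM1 cells WARS was at 47.0 ± 0.655 CPM per kilobase and ranked 9 among the 36 genes, beside MARS at 47.4 ± 1.11 and YARS at 46.2 ± 1.19, from which it did not differ beyond the spread. By the longest transcript YARS was at 117 and WARS at 96.7 CPM per kilobase in these cells. GARS remained highest at 185 ± 1.93. IARS2 had the highest level of the mitochondrial genes, at 30.4 ± 0.596 CPM per kilobase in shCTL and 40.9 ± 1.37 in shPBRM1. CARS, at 8.31 ± 0.414 CPM per kilobase in shCTL, was the lowest of the cytosolic genes. WARS2 was at 3.90 ± 0.189 in shCTL and 4.47 ± 0.248 in shPBRM1.

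Within each library, WARS made up 9.93%, 9.93% and 9.94% of the length-corrected counts of the 20 cytosolic genes in shCTL and 4.05%, 4.11% and 4.03% in shPBRM1. These shares need no scaling between libraries. As a share of the uncorrected cytosolic synthetase counts, WARS fell from 12.0% in each control (exact 95% binomial interval of 11.9% to 12.2% in replicate 1, which covers counting error only) to 4.90%, 4.99% and 4.90%.

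**Figure D5:**
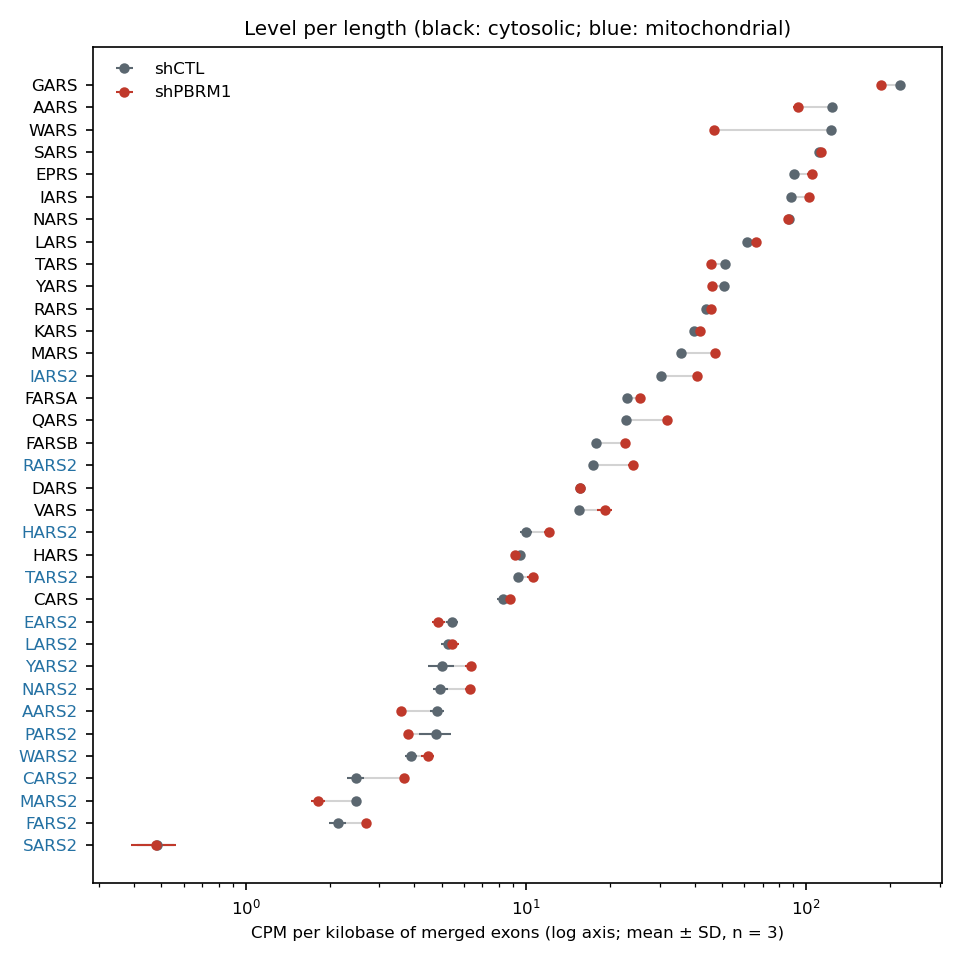
Level per length of 35 synthetase genes in CPM per kilobase of merged exons on a log axis, mean ± SD of 3 libraries, in shCTL (grey) and shPBRM1 (red); VARS2 is left out. WARS moves from 123 to 47.0, from rank 3 to rank 9.

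Other genes that act beside the synthetases were taken as a list of 16. Of these, 6 were lower (SEPSECS, EEF1E1, DTD1, GATC, MTFMT and XPOT), 4 were higher (AIMP1, AIMP2, EEF1A1 and TUFM) and 6 did not pass the test, with a median log2 fold change of -0.13. These counts are close to the shares over all tested genes, 33.2% lower and 31.5% higher. SEPSECS, which converts phosphoserine on its tRNA into selenocysteine, was the 1 gene of the 16 past a fold change of 2, against 9.68% of all tested genes that were lower by that rule. It was at 20.6, 20.4 and 20.9 CPM in shCTL and at 8.60, 10.1 and 8.22 CPM in shPBRM1 libraries. The groups were well apart (log2 fold change -1.21, standard error 0.093, adjusted p = 3.54e-12, edgeR). PSTK, the kinase that acts before it on the same tRNA, did not pass the test (-0.21, adjusted p = 0.255).

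AIMP1 and AIMP2, scaffold genes of the multisynthetase complex, rose by log2 fold changes of 0.15 and 0.35, and EEF1E1, which encodes another scaffold protein, was lower at -0.26 (adjusted p = 0.0258), although its groups overlapped, as did those of MTFMT (-0.34), the formylase of the mitochondrial initiator tRNA. XPOT, the exporter of tRNAs from the nucleus, was lower at -0.21 (adjusted p = 5.64e-05). The genes for the factors that carry charged tRNAs to the ribosome were higher, with EEF1A1 for the cytosol at 0.44 and TUFM for mitochondria at 0.19. EEF1A1 has 39 named pseudogenes in the annotation that could take some of its reads. For the route by which mitochondria make glutaminyl-tRNA from glutamyl-tRNA, GATC was lower (-0.23, adjusted p = 0.0254), and its partners QRSL1 (-0.075) and GATB (0.097) did not pass the test.

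The IFN-inducible genes IRF1, a transcription factor, and IDO1, the tryptophan-degrading enzyme, had larger decreases than WARS. IRF1 was at 33.0% of its control level in shPBRM1 (log2 fold change -1.60) and IDO1 at 1.23% (-6.30), against 38.3% for WARS. These comparisons share the same 6 libraries, and the differences between the genes were not tested.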

How the data were processed

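RNA-seq counts of 6 BT-549 libraries were analyzed. The table deposited by the authors holds raw, unnormalized counts for gene symbols; the submitters' processing notes name CASAVA 1.8.2, STAR 2.7.9a, featureCounts, DESeq2 1.24.0 and GRCh38.p7. The annotation and the strand setting of the counting are not given in the sources used here, although the library kit was stranded. Of the 37887 rows, 14 carry dates in place of symbols (at most 0.0594% of the counts) and were kept but not named.

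Genes kept by filterByExpr (15450) entered the quasi-likelihood F-test of edgeR 4.0.16 (R 4.3.3) after TMM normalization, with Benjamini-Hochberg adjustment over these genes. DESeq2 1.42.0 was an alternative. Standard errors came from log2 CPM with a prior count of 2, and ratios of 2 genes were compared by exact permutation tests. On simulated counts with 200 genes changed 2-fold, edgeR recovered 200 of them among 15413 tested, with 9 false calls. Libraries of a group differed by more than sampling noise (chi-square per degree of freedom 4.92 to 24.9). RNA came from triplicate cultures; if these were not independent, p-values measure only the spread between these samples.

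The control columns of the table carry only the cell line and a number; they were taken as the control shRNA samples because the other columns name shPBRM1, and their replicate numbers were inferred from the last number of the column name. Same-numbered libraries, by this reading, deviated together: correlations across 5622 genes were 0.734, 0.593 and 0.419, although shCTL replicate 2 and shPBRM1 replicate 3 also correlated at 0.464. Since every same-numbered pair was above 0.1, the replicate number was also fitted as a block. Lengths and positions are from GENCODE v29 (GRCh38), and promoters from RefSeq (GRCh38.p14).

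All 36 members may be named; values in every library are given for WARS, WARS2, PBRM1 and the 3 largest rises and falls of each set. Members, lists and motifs were chosen with earlier results of these data known. SEPSECS was singled out after its values were seen. A gene of the IFN list is not reported here.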

Additional observations from a re-analysis of the deposited data

How the results depend on the processing

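Normalization, filters, DESeq2, the replicate block and each library left out in turn were tried. The log2 fold change of WARS stayed between -1.43 and -1.37 and its call held in every fit, as did the call of PBRM1 (-1.96 to -1.89). The counts of cytosolic and mitochondrial genes called stayed within 1.5 times in every fit. With the replicate block, WARS was at -1.38, and no call of a named synthetase gene was gained or lost. Library size alone shifted the median of all tested genes from -0.0080 to -0.056 and that of the 19 cytosolic genes other than WARS from 0.069 to 0.020; a mean of at least 50 counts gave 0.058, and the range with each library left out was 0.061 to 0.079.

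Signs turned only for genes without a call. DARS, at -0.00047, was 0.0053 with RLE factors, 0.00065 without the filter and 0.0037 with DESeq2, and between -0.021 and 0.016 with a library left out. SARS was -0.029 with library size alone and between -0.00047 and 0.043 with a library left out. LARS2 was -0.0028 with library size alone. SARS2 was -0.041 with library size alone, -0.0050 with the replicate block, and between -0.16 and 0.13 with a library left out. CARS passed without shCTL replicate 3 (0.11), and HARS with library size alone (-0.11). By the longest transcript, WARS ranked 2 instead of 3 in shCTL cells. The causes were not tested. Among the synthetase genes tested, SARS2 had the lowest mean, 77.3 counts.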
